A study of Mus musculus with 4 samples.

Results

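Cxcl9 and Cxcl10, 2 chemokines induced by interferon, and Cxcr3, the receptor they share, were followed across the cells of CT26 tumours and of their draining lymph nodes (TDLN). They were found by symbol among the genes of the files, where Cxcl9 is ENSMUSG00000029417, Cxcl10 is ENSMUSG00000034855 and Cxcr3 is ENSMUSG00000050232, and they are 3 of 31253 genes measured. Cxcl11, another ligand of the same receptor, was not analysed on its own and belongs to the list of other lymphocyte-attracting chemokines below. The 4 groups were single-cell libraries of tumour with NanoCa, tumour with mock treatment, TDLN with NanoCa and TDLN with mock treatment. CT26 is a mouse colon carcinoma line, the hosts were female mice aged 4 to 8 weeks, and NanoCa is a lipid nanoparticle that carries calcium in crystal form. Each group held 1 library, so no replicate error could be measured and no test was run. Every interval below is a 95% interval that covers counting error alone. The mock libraries are tagged as untreated while the field on the treatment procedure names NanoCa for all 4 libraries, and every ratio below assumes that the tags are right. Cells were stained for CD45 and sorted, and the labels state neither the gate nor the number of mice behind a library.

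CXCL9 and CXCL10 are secreted proteins that draw activated T cells and natural killer (NK) cells along a gradient, through the G protein-coupled receptor CXCR3. Interferon gamma induces both ligand genes, and Cxcl10 is also known to respond to type I interferon and to NF-kappaB. In tumours, macrophages and dendritic cells are known sources of Cxcl9, while tumour and stromal cells can also make Cxcl10, and Cxcr3 is acquired by T cells as they leave the naive state, under the transcription factor T-bet.

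The ligand genes lie on chromosome 5 with Art3 between them in the RefSeq order of protein-coding genes. The 250 bases before each annotated start are shown because both ligands belong to the interferon response while the classes that held most of their UMIs differed below. They were taken from RefSeq, build GRCm38.p6, which is not stated to be the build of the files. Capitals mark matches, on either strand, to an interferon-stimulated response element-like motif (ISRE-like: GAAA, any 2 bases, GAAA) or a kappaB-like motif (GGG, any 5 bases, CC).
Cxcl9 (chr5:92328080-92328329, minus strand): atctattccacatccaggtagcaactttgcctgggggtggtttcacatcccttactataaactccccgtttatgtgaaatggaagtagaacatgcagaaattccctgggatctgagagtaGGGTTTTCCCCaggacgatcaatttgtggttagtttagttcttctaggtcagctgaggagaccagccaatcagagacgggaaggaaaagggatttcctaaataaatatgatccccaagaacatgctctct
Cxcl10 (chr5:92348890-92349139, minus strand): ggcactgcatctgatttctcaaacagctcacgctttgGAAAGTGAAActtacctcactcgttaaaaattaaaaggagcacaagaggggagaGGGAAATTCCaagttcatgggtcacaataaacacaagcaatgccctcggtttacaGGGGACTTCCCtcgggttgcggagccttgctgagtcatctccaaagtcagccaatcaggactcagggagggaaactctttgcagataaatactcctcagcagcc
Counted from the start, the Cxcl10 window held 1 match to the ISRE-like motif, at -213 to -204, and 3 to the kappaB-like motif, at -159 to -150, -104 to -95 and -103 to -94, the last pair overlapping. The Cxcl9 window held 2 overlapping matches to the kappaB-like motif, at -130 to -121 and -129 to -120, and none to the ISRE-like motif. Neither window held TTCNNNGAA, the letters used here for the interferon gamma-activated site. Of 32851 promoter windows of the same length, 2.98% held the ISRE-like motif, 45.8% held the kappaB-like motif and 7.02% held TTCNNNGAA. These are matches of letters and not measured binding sites, and interferon-responsive elements spelled otherwise were not searched for.

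The libraries held 9404 to 11287 barcodes, with median UMIs of 12387 and 11934.5 in tumour NanoCa and mock and 4230.5 and 4417 in TDLN NanoCa and mock. A UMI is a tag that marks 1 captured RNA molecule. After filters and removal of doublets, 10209, 8592, 10043 and 9425 cells were kept, and any 2 libraries shared 121 to 183 barcode sequences, at most 1.65% of a library. Cells were clustered without the 3 genes and without interferon and chemokine genes, and clusters were named from marker genes, so that each class name below stands for cells like that type. A large class was defined by low Ptprc (CD45) and low Xist and is called Xist-low Ptprc-low. In the tumour its summed level of 8 carcinoma markers was 461 CPM with NanoCa and 413 CPM in mock, with Epcam at 0 in mock. The same markers summed to 67.8 and 40.3 CPM in macrophages and to 599 and 1443 CPM in fibroblasts. For 8 fibroblast markers the Xist-low Ptprc-low sum was 515 and 516 CPM, against 134 and 84.8 CPM in macrophages and 31077 and 21362 CPM in fibroblasts. Whether these cells are CT26 cells was not tested. Levels are counts per 1000000 UMIs of the same class and library (CPM); since the assay tags RNA ends, CPM does not scale with gene length.

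The class that held the largest part of the UMIs differed between the ligands, though macrophages and other classes carried both. The monocyte and macrophage class held the largest part of Cxcl9, with 51.8% (NanoCa) and 54.0% (mock) of a tumour library's Cxcl9 UMIs and 85.2% and 53.3% in TDLN. With doublets kept, the tumour shares were 47.5% and 45.9%. In the tumour, fibroblasts followed with 28.0% and 13.5% and endothelial cells with 5.61% and 12.2%. Most Cxcl10 UMIs came from Xist-low Ptprc-low cells, with 77.7% and 79.2% in the tumour and 51.1% and 71.3% in TDLN. Macrophages held a further 15.9% and 15.7% of Cxcl10 in the tumour and 18.1% and 14.5% in TDLN. Cxcr3 lay in lymphocytes: T cells held 47.6% and 53.0% of its UMIs in the tumour and 81.4% and 77.7% in TDLN, and NK cells 21.0% and 27.6% and then 6.50% and 12.8%. Shares follow the number and depth of the cells in each class, which the sort can set.

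**Figure D1:**
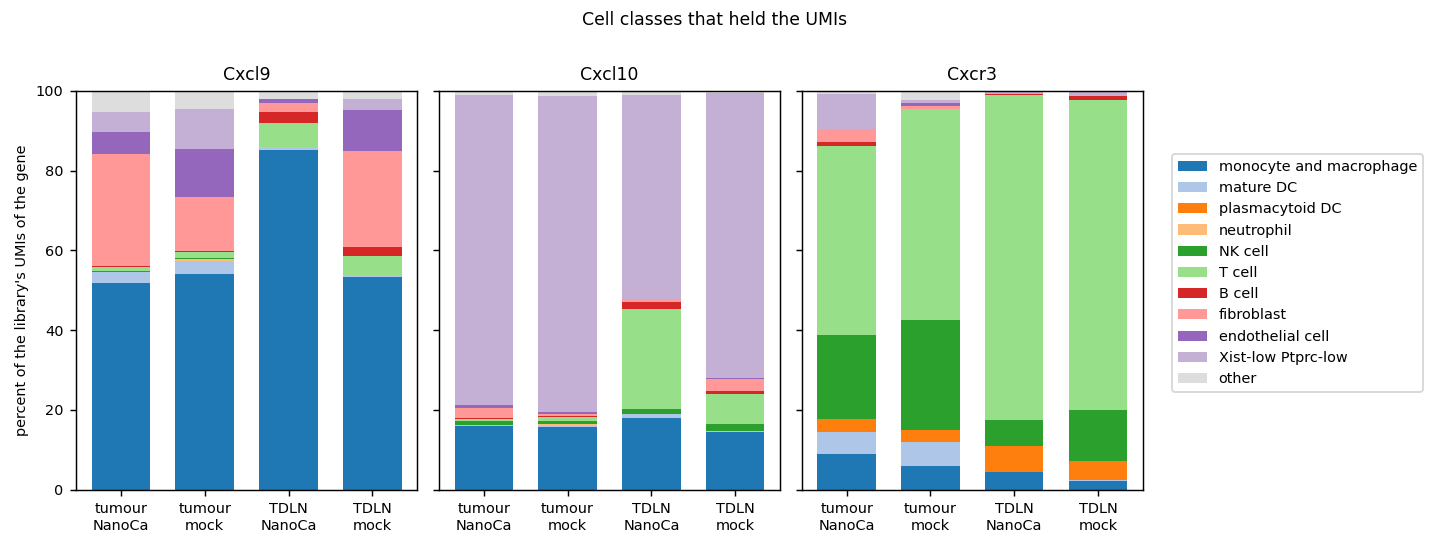
Stacked bars of the percent of each library's UMIs of Cxcl9, Cxcl10 and Cxcr3 that each cell class held; other stands for unnamed cells and classes with few cells. Macrophages hold the largest part of Cxcl9 (51.8% to 85.2%), Xist-low Ptprc-low cells the largest part of Cxcl10 (51.1% to 79.2%) and T cells the largest part of Cxcr3 (47.6% to 81.4%).

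Per UMI, the order of classes was another. In tumour mock, Cxcl9 was highest in endothelial cells at 571 CPM (interval 511 to 636), then in fibroblasts at 453 CPM (408 to 502). Macrophages followed at 280 CPM (266 to 295) and the dendritic class at 218 CPM (175 to 268). The last pair of intervals overlapped and the others did not. These intervals treat each UMI as an independent count. Cxcl9 was found in 26 of 57 endothelial cells, 21 of 78 fibroblasts and 218 of 627 macrophages of that library. Most endothelial and fibroblast UMIs lay in still fewer cells, as given below, so the intervals do not settle this order. That dendritic class was named mature DC, but its leading genes also held Cd209a and Clec9a of other dendritic cells. T, B and NK cells of the tumour stood at 6.43 to 14.2 CPM of Cxcl9 in both libraries. That is at or under the 14.4 and 21.98 CPM of naive T cells, which should lack the gene. This reference rests on 4 UMIs in 140 NanoCa cells and 20 UMIs in 386 mock cells, and naive T cells are also part of the T-cell class. With that limit, the Cxcl9 of those lymphocytes is read as background RNA. The Xist-low Ptprc-low cells had 0.722 CPM (NanoCa) and 2.31 CPM (mock) of Cxcl9, below the same reference. With each cell thinned to 1000 UMIs, 0.127% and 0.338% of them held a Cxcl9 UMI, against 2.22% and 2.88% of naive T cells (unthinned, 1.27% and 3.94% of cells with median UMIs of 20797 and 22388). Background RNA makes up a smaller part of the UMIs of deeper cells, so CPM and thinned shares favour a low reading here. Without scaling, the Xist-low Ptprc-low cells held 95 Cxcl9 UMIs in 6359 cells (NanoCa) and 273 in 5329 (mock), beside the naive T-cell counts above. This comparison therefore cannot tell background from expression. Cxcl9 of the Xist-low Ptprc-low cells was past the fold at log2 -1.68 (-2.03 to -1.34), as 4.41% of genes were lower. Naive T cells had -0.615 (-2.62 to 0.963), with too few UMIs for a call. Of Xist-low Ptprc-low cells with Cxcl9, 40.7% (NanoCa) and 35.7% (mock) also held Cxcl10. The shares without Cxcl9 were 25.3% and 30.4%, and deeper cells are more likely to show both.

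For Cxcl10 in tumour mock, macrophages led at 456 CPM (438 to 474), followed by neutrophils at 197 CPM (143 to 264), dendritic cells at 144 CPM (110 to 186), fibroblasts at 124 CPM, NK cells at 119 CPM, Xist-low Ptprc-low cells at 102 CPM and endothelial cells at 102 CPM. From neutrophils on, neighbours in this order overlapped in their intervals. Naive T cells stood at 28.7 and 36.3 CPM. After thinning, 5.11% (NanoCa) and 6.43% (mock) of Xist-low Ptprc-low cells held a Cxcl10 UMI, above the 2.22% and 2.62% of naive T cells. Cxcl10 in these cells was thus above the naive T-cell reference and Cxcl9 was not. Among tumour T cells, Cxcl10 was above naive T cells in gamma-delta T cells (166 and 104.5 CPM, from 25 and 24 UMIs), memory-like CD8 T cells (111 and 241 CPM, from 15 and 42 UMIs) and regulatory T cells (82.7 and 74.5 CPM), and the whole T-cell class stood at 52.5 and 57.3 CPM.

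The balance of the ligands differed between the sources. Macrophages of the tumour had 2.09 Cxcl10 UMIs per Cxcl9 UMI with NanoCa (1.94 to 2.26) and 1.63 in mock (1.53 to 1.74), and those of TDLN had 1.34 and 0.958. Endothelial cells of the tumour leaned to Cxcl9 in mock, at 0.178 (0.133 to 0.236). With NanoCa they stood at 0.925 (0.695 to 1.23), an interval that takes in an even balance. Fibroblasts leaned to Cxcl9 in both libraries, at 0.632 (0.550 to 0.726) and 0.275 (0.218 to 0.343). No ratio is given for Xist-low Ptprc-low cells, whose Cxcl9 could not be told from background. Among tumour macrophages with a Cxcl9 UMI, 46.4% (NanoCa) and 53.2% (mock) also held Cxcl10, against 21.7% and 36.7% of macrophages without Cxcl9. In TDLN macrophages the same shares were 33.3% and 50.9% against 11.9% and 16.6%, and deeper cells are more likely to show both genes.

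**Figure D2:**
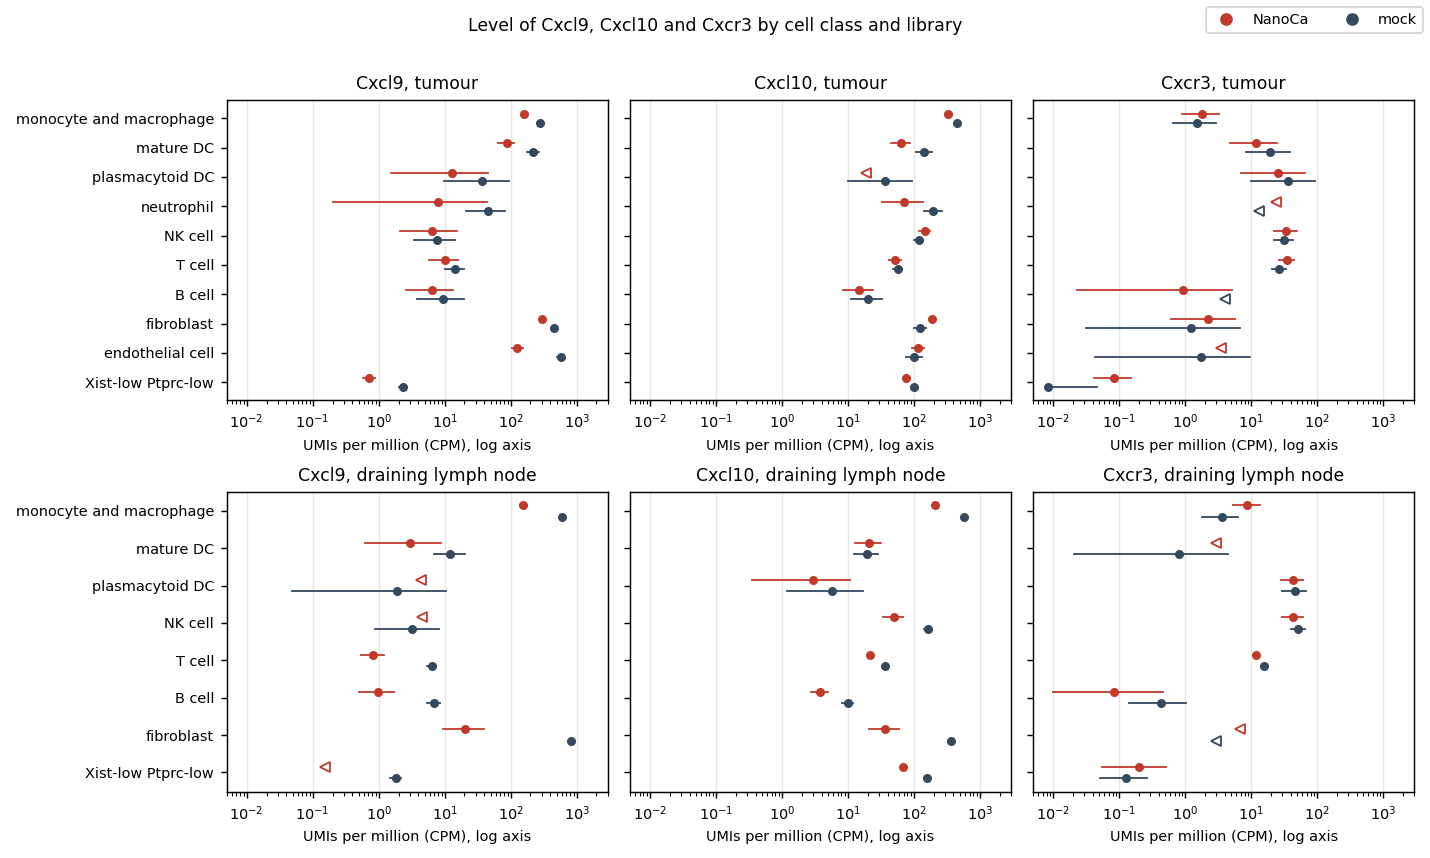
Level of each gene in CPM (log axis) by cell class, for tumour (top) and draining lymph node (bottom). Points are 1 library each, lines are exact Poisson 95% intervals, and open triangles mark 0 UMIs, drawn at the level of 3 counts. In tumour mock Cxcl9 reaches 571 CPM in endothelial cells and 2.31 CPM in Xist-low Ptprc-low cells, while Cxcl10 lies at 102 CPM in both.

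In tumour macrophages Cxcl9 was lower with NanoCa, while Cxcl10 differed by less than 1.5-fold. Cxcl9 stood at 161 CPM (151 to 171) in 943 NanoCa cells and 280 CPM (266 to 295) in 627 mock cells, a log2 ratio of -0.80 (-0.92 to -0.68). Cxcl10 stood at 336 CPM (322 to 351) and 456 CPM (438 to 474), a log2 ratio of -0.44 (-0.53 to -0.35). A gene was called past the fold where both libraries together held at least 50 UMIs and CPM differed at least 1.5-fold. Cxcl9 was past it and Cxcl10 was not; 2.81% of the 9668 genes measured in these cells were lower by that rule. The median gene of this class had a log2 ratio of 0.12, so the ratios relative to the other genes were lower still: under TMM scaling they were -0.92 for Cxcl9 and -0.55 for Cxcl10.

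Levels differed between the clusters of the class. The largest macrophage cluster, led by the complement genes C1qa, C1qb and C1qc, had 150 CPM (NanoCa) and 244 CPM (mock) of Cxcl9 and 255 and 379 CPM of Cxcl10. A smaller cluster of 97 and 85 cells, whose leading genes held Ly6c2, a monocyte marker, and Rsad2, an antiviral gene, had 535 and 807 CPM of Cxcl9 and 1357 and 1133 CPM of Cxcl10. There Cxcl9 was lower (log2 -0.59) and Cxcl10 not past the fold (log2 0.26, 0.10 to 0.42). A cluster of 105 and 70 cells led by Retnla and with Il1b had 53.8 and 82.7 CPM of Cxcl9 and 422 and 479 CPM of Cxcl10. In the last cluster Cxcl10 was near the class level while Cxcl9 was below that of the other clusters named.

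Few cells carried much of the signal. In tumour macrophages the 10 cells with most UMIs held 33.9% (NanoCa) and 26.1% (mock) of Cxcl9 and 31.9% and 29.5% of Cxcl10. The single highest macrophage had 153 Cxcl10 UMIs. After thinning, 8.08% of NanoCa and 16.3% of mock macrophages held a Cxcl9 UMI, and 12.5% and 17.8% a Cxcl10 UMI; unthinned the shares were 16.2% and 34.8%, and 25.7% and 42.4%.

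The other tumour sources are given in turn, with NanoCa first. Endothelial cells had 126 CPM of Cxcl9 in 82 NanoCa cells and 571 CPM in 57 mock cells, log2 -2.18 (-2.51 to -1.86), past the fold as 6.61% of genes were in that direction, while their Cxcl10 stood at 117 and 102 CPM (log2 0.20, -0.29 to 0.69). The 10 highest endothelial cells held 92.5% and 89.7% of the Cxcl9 UMIs, and with thinned cells the ratio was -3.90. The dendritic class had 87.1 and 218 CPM of Cxcl9 and 63.2 and 144 CPM of Cxcl10, both past the fold (6.56% of genes lower). Without the 10 cells with most Cxcl9 in each library the dendritic Cxcl9 ratio was 0.03, and with all variable genes in clustering the dendritic Cxcl10 ratio was -0.35, so neither call held throughout. Fibroblasts had 299 and 453 CPM of Cxcl9 (log2 -0.60) and 189 and 124 CPM of Cxcl10 (log2 0.60), each past the fold, where 10.9% of genes were lower and 7.95% higher. The 10 highest fibroblasts held 84.7% and 96.2% of the Cxcl9 UMIs, and without them the Cxcl9 ratio was 1.15. Cxcl9 fell short of the fold under TMM (-0.565) and with thinned cells (-0.50), and was -1.53 with doublets kept. Cxcl10 was -0.38 with doublets kept, 0.57 with all variable genes in clustering and 0.21 thinned, so neither fibroblast call held throughout. The 10 macrophage markers summed to 557 and 542 CPM in fibroblasts, with Adgre1 at 0 in NanoCa, against 26784 and 25817 CPM in macrophages, while Cxcl9 per UMI was higher in fibroblasts than in macrophages. Other marker sums moved between the libraries: in fibroblasts the 8 carcinoma markers stood at 599 and 1443 CPM, 8 endothelial markers at 78.4 and 357 CPM, with Vwf at 0 in mock, and 8 fibroblast markers at 31077 and 21362 CPM. Their part in the ligand ratios was not tested. Neutrophils had 9 Cxcl10 UMIs with NanoCa and 44 in mock, 72.0 and 197 CPM, past the fold (8.78% of genes lower).

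The Xist-low Ptprc-low cells of the tumour had 76.1 CPM of Cxcl10 (74.6 to 77.6) in 6359 NanoCa cells and 102 CPM (100.4 to 104.1) in 5329 mock cells, a log2 ratio of -0.43 that is not past the fold, as 4.41% of genes were in that direction. The intervals are apart, but they hold no error between animals. Cxcl10 ranged widely among their clusters. A cluster led by Lcn2 and Car6 had 12.2 and 17.3 CPM and a cluster led by Cldn9 and Cdca7 had 20.6 and 23.2 CPM. The cycling cluster led by Ube2c and Aurkb had 78.3 and 117 CPM, and a cluster led by Aldh3a1, with the interferon-induced GTPase gene Gbp2 among its leading genes, had 161 and 215 CPM. The highest level was in a cluster led by the matrix genes Aspn and Mgp, with 333 CPM (NanoCa) and 245 CPM (mock), the reverse direction (log2 0.44, 0.33 to 0.55, not past the fold). After thinning, 12.2% and 15.7% of the cells of that cluster, which had 396 and 545 cells in all, held a Cxcl10 UMI. The share of cells thus did not follow the higher NanoCa level, and the counting error of these shares is not given here.

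**Figure D3:**
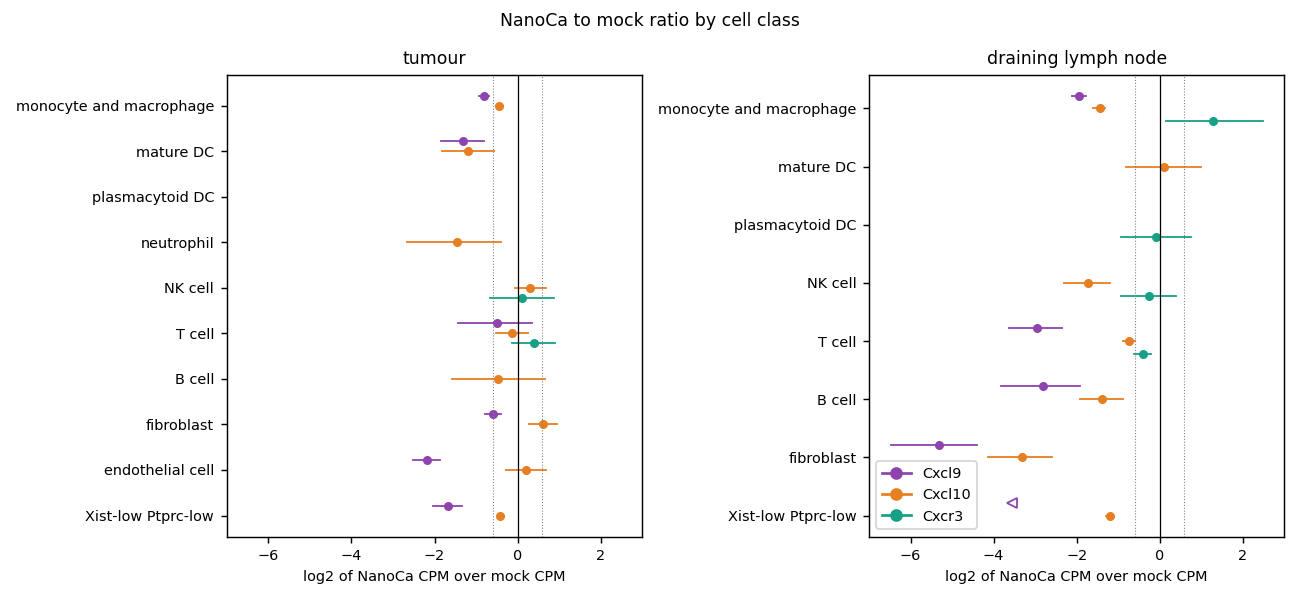
Log2 ratio of NanoCa to mock CPM for each gene and class with at least 20 UMIs over both libraries; points are ratios, lines exact conditional binomial 95% intervals, dotted lines mark 1.5-fold, and the open triangle is a bound from 3 counts where NanoCa had 0 UMIs. In the lymph node the ligands lie left of 0 in macrophages (-1.94 and -1.45). The Cxcr3 ratio stays within 1.5-fold in T cells of both tissues, with intervals that reach past it.

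In TDLN macrophages both ligands were lower with NanoCa. The class had 156 CPM of Cxcl9 (140 to 173) in 282 NanoCa cells and 600 CPM (572 to 628) in 291 mock cells, log2 -1.94 (-2.11 to -1.78). Cxcl10 stood at 210 CPM (191 to 229) and 574 CPM (548 to 602), log2 -1.45 (-1.60 to -1.31). Both were past the fold, as 8.75% of the 8129 genes were in that direction. The class held different clusters in the libraries, since a cluster led by Mmp9 and Ctsk, genes known from osteoclasts, made up 153 of 282 cells with NanoCa and 81 of 291 in mock. Its median depth was 1045 and 865 UMIs, and that of the class 2764.5 and 9502 UMIs. That cluster held 3 and 7 Cxcl9 UMIs. Within the other cluster, led by S100a9, S100a8 and C1qc, with 129 and 210 cells, Cxcl9 stood at 177 and 655 CPM (log2 -1.89) and Cxcl10 at 232 and 627 CPM (log2 -1.43), close to the ratios of the class. The 10 highest cells held 72.7% (NanoCa) and 47.5% (mock) of Cxcl9 and 87.4% and 56.0% of Cxcl10. Without them the ratios were farther from 0, -2.86 and -3.28, and after thinning Cxcl9 was at -3.40 and Cxcl10 at -1.14.

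Xist-low Ptprc-low cells were also found in TDLN, 343 with NanoCa and 1057 in mock. Their Cxcl10 stood at 69.0 CPM (65.4 to 72.8) and 159 CPM (156 to 163), log2 -1.21 (-1.29 to -1.12), past the fold as 7.28% of genes were. A single NanoCa cell held 281 of the 1350 UMIs and the 10 highest cells 66.4%; without the 10 highest cells of each library the ratio was -2.21. The cycling cluster led by Pimreg and Ube2c had 43.0 and 201 CPM (log2 -2.22), while the cluster led by Mustn1 and Mgp had 103 and 124 CPM (log2 -0.27, -0.38 to -0.16, not past the fold). No Cxcl9 UMI was found in the NanoCa cells and 98 were found in mock, at least 11.8-fold lower against 3 counts in the NanoCa class. The mock level of 1.81 CPM was below the 7.87 CPM of naive T cells of that library. The Xist-low Ptprc-low cells are far deeper, which lowers the CPM of background RNA, so this comparison cannot tell background from expression. Of the 50 mock cells with Cxcl9, 70% also held Cxcl10, against 46.4% of those without Cxcl9, and deeper cells are more likely to show both.

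TDLN fibroblasts were few, 25 with NanoCa and 48 in mock. Their Cxcl9 stood at 20.7 CPM (9 UMIs) and 826 CPM (829 UMIs), log2 -5.32 (-6.46 to -4.39), and Cxcl10 at 36.7 and 364 CPM, log2 -3.31. Both were past the fold, as 15.4% of genes were; Cxcl10 was -2.07 with doublets kept and -2.50 with all variable genes in clustering. All 829 mock Cxcl9 UMIs lay in 1 cluster of 23 mock cells led by Cxcl14 and Tnc, and 1 mock cell held 296 of 365 Cxcl10 UMIs. Summed over 10 macrophage markers, fibroblasts had 271 and 597 CPM against 14278 and 20892 CPM in macrophages, with C1qa, C1qb, C1qc, Adgre1, Cd68 and Ccr2 at 0 in the NanoCa fibroblasts. Endothelial cells numbered 12 and 51, with 5 and 351 Cxcl9 UMIs, 91.7 and 826 CPM.

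Lymphocytes of TDLN showed the ligands at low levels. T cells had 0.822 and 6.40 CPM of Cxcl9 (log2 -2.96) and B cells 0.992 and 6.93 CPM (log2 -2.80), close to the 0.724 and 7.87 CPM of naive T cells. Both ratios were past the fold, as 8.46% of T-cell genes and 9.06% of B-cell genes were lower, but the level is that of the reference and is read as background. Macrophage markers summed to 193 and 311 CPM in T cells and 69.0 and 141 CPM in B cells. Cxcl10 in T cells stood at 21.9 and 36.3 CPM (log2 -0.73, past the fold), and it was uneven: cycling T cells had 101 and 156 CPM, follicular helper-like cells 56.8 and 87.7 CPM, regulatory T cells 55.8 and 81.4 CPM and naive T cells 6.88 and 10.7 CPM. NK cells had 49.4 and 164 CPM of Cxcl10 (log2 -1.74, 8.68% of genes lower by the rule). Their macrophage markers summed to 470 and 1428 CPM, with Csf1r and Adgre1 at 0 in NanoCa; the part of macrophage RNA in that ratio was not tested. The 10 highest NK cells held 87.9% and 90.8% of the UMIs, and with thinned cells the ratio was -0.96.

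Cxcr3 lay in a few lymphocyte subsets. In the tumour, memory-like CD8 T cells led with 119 CPM (16 UMIs in 51 NanoCa cells) and 155 CPM (27 UMIs in 45 mock cells). Gamma-delta T cells followed with 106 and 69.7 CPM, regulatory T cells with 47.3 and 79.2 CPM and CD4 T cells with 47.3 and 14.4 CPM (7 and 2 UMIs). NK cells had 33.7 and 31.3 CPM and plasmacytoid dendritic cells 25.6 and 36.5 CPM, the latter from 4 UMIs in each library. Neighbours in this order overlapped in their intervals. Naive T cells were low at 7.18 and 6.59 CPM, and cytotoxic CD8 T cells, with granzyme and perforin genes, had 1 and 2 UMIs in 29 and 112 cells, 6.07 and 2.83 CPM. After thinning, 13.7% and 17.8% of memory-like CD8 T cells held a Cxcr3 UMI (unthinned 19.6% and 35.6%, at median depths of 2364 and 3238 UMIs). The Xist-low Ptprc-low cells, which should lack the gene, had unthinned shares of 0.157% and 0.0188% at the deeper medians of 20797 and 22388 UMIs.

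In TDLN, follicular helper-like T cells (47.8 CPM with NanoCa, 52.9 CPM in mock), cycling T cells (39.0 and 57.9 CPM), NK cells (43.4 and 51.9 CPM) and plasmacytoid dendritic cells (42.7 and 45.8 CPM) formed an upper group whose intervals overlapped. Regulatory T cells (18.5 and 23.7 CPM) and memory-like CD8 T cells (16.4 and 17.3 CPM) followed. Naive T cells held no Cxcr3 UMI in 741 NanoCa and 372 mock cells, which, at 3 counts of the total as the limit of a count of 0, allows a share of cells with a UMI of up to 0.405% and 0.806%. TDLN gamma-delta T cells held none in 28 and 21 cells, which by the same limit allows up to 10.7% and 14.3%. B cells were near 0 at 0.0827 and 0.439 CPM.

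**Figure D4:**
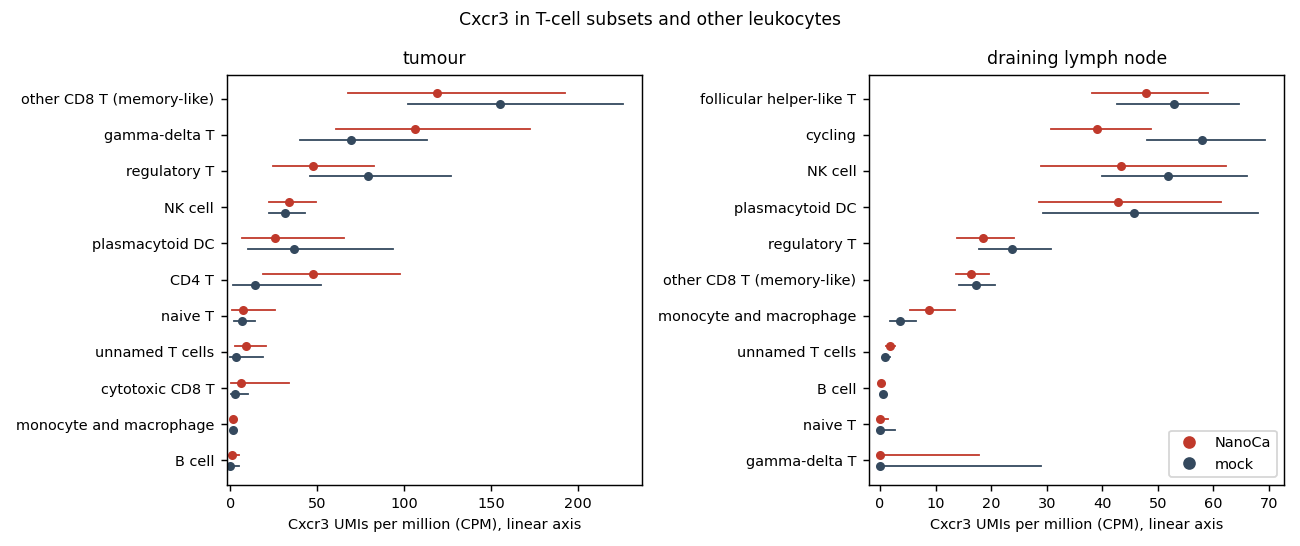
Cxcr3 level in CPM (linear axis) in T-cell subsets and other leukocytes with at least 20 cells per library, ordered by mean level; points are 1 library each and lines exact Poisson 95% intervals. Memory-like CD8 T cells of the tumour lie at 119 and 155 CPM, while naive T cells of the lymph node lie at 0.

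Between treatments Cxcr3 did not pass the fold in any class with all cells and UMIs counted. Only T and NK cells of both tissues and plasmacytoid dendritic cells of TDLN held the 50 UMIs that the rule needs. The other classes could not pass it, whatever their ratio. Tumour T cells had 34.8 CPM (26.5 to 44.9) with NanoCa and 26.6 CPM (20.8 to 33.6) in mock, log2 0.39 (-0.14 to 0.91), where 7.88% of genes were higher by the rule. TDLN T cells had 11.9 CPM (10.7 to 13.2) and 15.9 CPM (14.3 to 17.5), log2 -0.41 (-0.62 to -0.20). In NK cells the log2 ratio was 0.11 (-0.68 to 0.87) in the tumour, where 7.47% of genes were higher and 4.05% lower, and -0.26 (-0.94 to 0.40) in TDLN. The NK ratios depended on the counting: with thinned cells they were 0.81 in the tumour and -1.46 in TDLN, and without the 10 cells with most Cxcr3 the TDLN value was -1.13, each past 1.5-fold. Plasmacytoid dendritic cells of TDLN had a ratio of -0.10 (-0.93 to 0.75), and 1.78 without the 10 cells. With 24 to 71 Cxcr3 UMIs per library in the tumour T cells and in the NK and plasmacytoid dendritic cells named here, the interval of each ratio reached past 1.5-fold, so these counts do not exclude a difference of that size. The lower end of the TDLN T-cell interval (-0.62) also lay just past 1.5-fold. Among TDLN subsets, cycling T cells had a log2 ratio of -0.57 (-1.01 to -0.14) and follicular helper-like T cells -0.15 (-0.59 to 0.29). Summed over all TDLN cells, Cxcr3 had the opposite sign, with 6.604 CPM with NanoCa and 5.13 CPM in mock (log2 0.36). That sum also took in 343 NanoCa and 1057 mock Xist-low Ptprc-low cells, whose median depths were 55942 and 53017 UMIs and whose Cxcr3 stood at 0.204 and 0.129 CPM.

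Levels were also set side by side between the tissues, over cells clustered apart. In mock, macrophage Cxcl9 was lower in the tumour than in TDLN (280 against 600 CPM, log2 -1.10, -1.20 to -1) and the ratio for Cxcl10 was log2 -0.33 (-0.42 to -0.24). With NanoCa the macrophages had about the same Cxcl9 CPM in both tissues (161 and 156 CPM, log2 0.04, -0.13 to 0.22). Their Cxcl10 was higher in the tumour (log2 0.68, 0.54 to 0.83). The share of cells with Cxcl9 was not alike. After thinning, 8.08% of tumour and 2.83% of TDLN macrophages held a Cxcl9 UMI with NanoCa, and 16.3% and 21.2% in mock. Cxcr3 of T cells was higher in the tumour, by log2 0.75 (0.36 to 1.11) in mock and 1.54 (1.12 to 1.94) with NanoCa. The subsets in a class differ between the tissues, and memory-like CD8 T cells had 155 CPM in tumour mock and 17.3 CPM in TDLN mock. NK cells had 31.3 and 51.9 CPM in mock, lower in the tumour (log2 -0.73, -1.35 to -0.12).

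The genes that act around the axis were counted in lists that had been chosen with earlier results of these data known. In tumour macrophages, 3 of 17 interferon receptors, kinases and promoter-acting factors were lower: Tnf, an inducer of NF-kappaB (193 against 791 CPM, log2 -2.04), Irf1, an interferon-induced transcription factor (log2 -1.11), and Nfkb1 (log2 -0.67). The list of interferon gamma-induced genes had 4 lower and 1 higher among 20 measured, where 2.81% of all genes were lower. Its median log2 ratio of -0.35 stood beside 0.12 over all genes. Under TMM scaling 8 were lower. The checkpoint ligand Cd274 (log2 -0.88) and the GTPase Gbp4 (log2 -0.75) were lower and the feedback inhibitor Socs1 was higher (log2 1.12). Of 7 other lymphocyte-attracting chemokines, 3 were lower, namely Ccl5 (log2 -0.92), Ccl3 (log2 -0.68) and Ccl4 (log2 -0.64), and 1 was higher. Gnai2, a G protein subunit that couples chemokine receptors, was the 1 of 13 signalling genes past the fold (943 against 403 CPM, log2 1.23; 10.3% of genes were higher).

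In Xist-low Ptprc-low cells of the tumour, the interferon gamma-induced list had 14 genes lower and 1 higher among 21. Of all genes, 4.41% were lower and 6.17% higher. The list median was -0.96 beside 0.015 over all genes. Gbp2 fell from 181 CPM in mock to 73.7 CPM with NanoCa (log2 -1.30), Iigp1, another interferon-induced GTPase, from 33.1 to 12.1 CPM (log2 -1.45) and Gbp7 from 45.1 to 21.6 CPM (log2 -1.06). Irf1 (log2 -0.74), an interferon-induced transcription factor, was lower in the list of receptors, kinases and promoter-acting factors. Cxcl10 stood at -0.43 in the same cells. Among 11 other lymphocyte-attracting chemokines 4 were higher and none lower, and Ccl5, a chemokine that attracts T cells, was named by the rule (22.2 against 8.66 CPM, log2 1.36). Higher too were Gnai2 (log2 1.57) and Rap1b (log2 0.80), a GTPase of cell adhesion. Ifnb1, the interferon beta gene, fell outside the rule for named genes by its low level and was chosen after its values were seen: it had 50 UMIs with NanoCa and 8 in mock (0.380 and 0.0676 CPM).

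**Figure D5:**
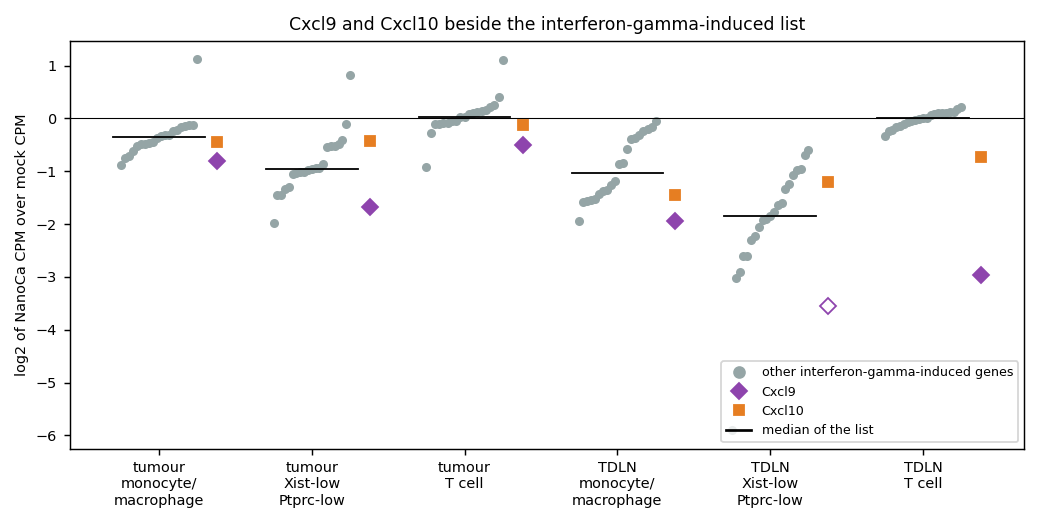
Log2 ratio of NanoCa to mock CPM of the other interferon gamma-induced genes with at least 50 UMIs (grey points, ordered by value), their median (line), Cxcl9 (diamonds) and Cxcl10 (squares) in 6 classes; the open diamond is a bound where NanoCa had 0 UMIs. In tumour Xist-low Ptprc-low cells Cxcl10 (-0.43) lies above the list median (-0.96), and in TDLN macrophages both ligands (-1.94 and -1.45) lie below it (-1.03).

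In TDLN macrophages the same list had 12 of 20 genes lower and none higher, where 8.75% of all genes were lower. Its median was -1.03 beside 0.041 over all genes, and Iigp1 (log2 -1.95), Gbp4 (log2 -1.59) and Cd274 (log2 -1.36) led. Tnf (log2 -1.83) and Irf1 (log2 -1.26) were lower in the list of receptors, kinases and factors. Of 9 other lymphocyte-attracting chemokines, 6 were lower and 1 higher: Ccl8, a monocyte-attracting chemokine, stood at 555.5 against 4048 CPM (log2 -2.87) and Pf4 at 203 against 474 CPM (log2 -1.22), while Ccl22, a chemokine of mature dendritic cells, was higher (log2 2.03). Ccr7 (log2 1.72), Xcr1 (log2 1.34) and Cx3cr1 (log2 1.17) were higher among 7 receptors, of which 4 were higher and 1 lower. Ccr7 and Xcr1 are markers of dendritic cells, and 7 T-cell markers summed to 313.5 and 110 CPM in this class, none at 0. The part of such cells in the class ratios was not tested. Of 14 signalling genes, Rap1b was lower (log2 -1.25) and Rgs2, a brake on G protein signalling (log2 0.75), and Dpp4, the protease that trims CXCR3 ligands (log2 1.01), were higher; 9.84% of all genes were higher. Of 5 genes in the T-box list, 2 were lower, among them Ccl5 (log2 -0.94), and Stat4 was higher (log2 0.90). In the Xist-low Ptprc-low cells of TDLN, all 21 measured genes of the interferon gamma-induced list were lower, where 7.28% of all genes were. The list median was -1.84 beside 0.042 over all genes.

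T cells, which receive the ligands and make interferon gamma, differed in genes known to go with Cxcr3. In tumour T cells 6 of 11 T-box and cytotoxic genes were lower and none higher (4.07% of genes were lower): Gzmb, granzyme B (127 against 402 CPM, log2 -1.66), Prf1, perforin (log2 -1.17), and Nkg7, of cytotoxic granules (log2 -0.70), led by the naming rule. Ifng, the interferon gamma gene, stood at 77.2 and 129 CPM (log2 -0.74) and Irf8 was lower (log2 -1.11). The mock tumour held 112 cytotoxic CD8 T cells and the NanoCa tumour 29. The 7 NK-cell markers summed to 150 CPM (NanoCa) and 288 CPM (mock) in this class, with Klra8 at 0 in both and Klrb1c at 0 in NanoCa, and their part was not tested. Cxcr6 (log2 -1.07) and Ccr7 (log2 -0.79) were lower among 8 other chemokine receptors, as were Ccl3 (log2 -1.35) and Ccl4 (log2 -0.87) among 6 chemokines, whereas Cxcr3 was not. Socs1 (log2 1.11) was higher and Gbp5 (log2 -0.91) lower among 19 interferon gamma-induced genes. Gnai2 (log2 1.44) and Rap1b (log2 0.94) were higher and Pik3cg (log2 -0.77), a kinase downstream of chemokine receptors, was lower.

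In TDLN T cells none of 21 interferon gamma-induced genes passed the fold in either direction, while 4 of 12 T-box and cytotoxic genes were lower and 1 higher. Of all genes in these cells, 8.46% were lower by the rule. Gzmb stood at 9.67 and 25.6 CPM (log2 -1.41), and Ifng, chosen after its values were seen, at 6.12 and 14.9 CPM (log2 -1.28). Irf7, a factor of the type I interferon response, was higher (112.5 against 59.7 CPM, log2 0.92; 2.71% of genes were higher by the rule). Ccl8 (log2 -3.40), which macrophages carried at 4048 CPM in mock, and Xcl1 (log2 -0.94), a T-cell chemokine for dendritic cells, were lower, as was Rap1b (log2 -1.17). Rap1b had the opposite sign in tumour T cells (log2 0.94), and the difference between the tissues was not tested.

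Across 33 sums of a library and a class with at least 50 cells, the genes whose level followed each member most closely were named by Pearson r of log2(CPM + 1) among 12494 genes. For Cxcl9 they were Gab1 (r = 0.918), Sash1 (0.888), Ch25h (0.884), Plau (0.882) and Gda (0.881). For Cxcl10 they were Oas1a (r = 0.872), Xdh (0.859), Zbp1 (0.843), Vegfa (0.833) and Tgm2 (0.832). For Cxcr3 they were Cd7 (r = 0.950), Klrd1 (0.935), Cst7 (0.884), Ramp1 (0.876) and Sla2 (0.875). Cxcl9 and Cxcl10 had r = 0.611 with each other, and Cxcr3 had -0.176 with Cxcl9 and -0.072 with Cxcl10. The sums share 4 libraries and differ widely in depth, so these values are a description.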

How the data were processed

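The authors deposited matrices of raw UMI counts for 4 libraries; per the file headers and the submitters' processing notes they came from Cell Ranger 7.1.0. No source used here gives the genome build. Kept barcodes had 200 genes or more and mitochondrial UMIs of 10% or less. Scrublet (scanpy 1.11.5) doublets were removed at 0.8% per 1000 barcodes, in all 689 to 1006 per library. Each tissue was clustered over both of its libraries (2000 variable genes, 30 components, 15 neighbours, leidenalg 0.10.2, resolution 1). A cluster took a class name with at least 3 markers enriched 1.5-fold. After the data were seen, clusters led by markers of another class were split again at resolution 0.5 or took that class, and low-UMI clusters without their own markers among 10 leading genes stayed unnamed. UMIs were summed per library and class. Levels carry exact Poisson, ratios exact conditional binomial and shares exact Clopper-Pearson intervals, which cover counting error alone. Thinning to 1000 UMIs left out 339 to 542 cells per library. Ratios and their intervals were tried on simulated counts with counting error alone, a setting without the few cells that held many UMIs here. TMM came from edgeR 4.0.16. The named list genes are up to 3 per list and class, ranked by the interval bound nearest to no change, past the fold and with at least 20 CPM in a library. Some list genes that the rule names are not reported here. Members and lists were chosen with earlier results of these data known.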

Additional observations from a re-analysis of the deposited data

Results flagged for a closer look

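Cxcl10 in fibroblasts was past the fold in opposite directions in the tissues: higher with NanoCa in the tumour (log2 0.602) and lower in TDLN (log2 -3.31). The difference between the tissues was not tested. The tumour value rests on 335 and 101 UMIs in 159 and 78 cells, and the TDLN value on 16 and 365 UMIs in 25 and 48 cells, with 296 of the 365 in 1 cell. Without removal of doublets the tumour ratio was -0.381.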

How the results depend on the processing

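Ratios were recomputed with doublets kept, at resolution 0.5, with all variable genes in clustering, with at least 500 genes per barcode, under TMM scaling, with thinned cells, with clusters weighted alike in both libraries and, chosen after seeing the data, without the 10 cells with most UMIs of the gene. Cxcr3 stayed between 0.06 and 0.43 in tumour T cells and between -0.42 and -0.30 in TDLN T cells; in TDLN NK cells it ranged from -1.46 to -0.15, in tumour NK cells from -0.38 to 0.81 and in TDLN plasmacytoid dendritic cells from -0.30 to 1.78, the last pair crossing 0. In tumour macrophages Cxcl9 was -0.65 with doublets kept, -0.96 thinned and -0.97 without the 10 cells, and Cxcl10 was -0.57 with all variable genes, -0.55 under TMM, -0.335 thinned and -0.252 with clusters weighted alike. Cxcl10 of tumour Xist-low Ptprc-low cells was -0.345 thinned, -0.25 with clusters weighted alike and -0.474 without the 10 cells. In TDLN macrophages Cxcl9 was -1.75 with doublets kept, -3.40 thinned and -2.86 without the 10 cells, and Cxcl10 was -1.22, -1.14 and -3.28, and -1.27 with clusters weighted alike. Cxcl10 of TDLN Xist-low Ptprc-low cells was -1.29 thinned, -1.09 with clusters weighted alike and -2.21 without the 10 cells. Under TMM 8 interferon gamma-induced genes were lower in tumour macrophages in place of 4. Reversed were Cxcl10 of tumour fibroblasts with doublets kept (-0.381), and, without the 10 cells, Cxcl9 of tumour fibroblasts (1.15) and of the tumour dendritic class (0.0253); beyond their construction, the cause was not tested. No paired analysis was possible because each group held 1 library. Low counts limit the Cxcr3 ratios, and 1 library per group leaves the error between animals unknown.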

Other observations

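Cells left without a class name had a ligand signal too. In the tumour, 1019 NanoCa and 847 mock cells with median UMIs of 1458 and 1299 had 33.8 and 47.8 CPM of Cxcl9 and 45.9 and 81.2 CPM of Cxcl10. In TDLN, 176 and 493 such cells had 25.1 and 96.0 CPM of Cxcl9 and 88.0 and 103 CPM of Cxcl10. Their macrophage markers summed to 3133 and 3518 CPM in the tumour and 3482 and 3882 CPM in TDLN, and the part of macrophage RNA in these levels was not tested. Gamma-delta T cells of TDLN held 40 Cxcl10 UMIs in 28 NanoCa cells and 5 in 21 mock cells, 193 and 39.3 CPM, with too few UMIs in all for the fold rule. TDLN macrophages held 20 Cxcr3 UMIs with NanoCa and 11 in mock, 8.77 and 3.60 CPM (log2 1.28, 0.15 to 2.49), also too few UMIs for the fold rule.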
